A study of Mus musculus with 16 samples.

Results

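The comparison described here is that of monocyte-dendritic cell progenitors (MDPs) that lack Irf8 with wild-type MDPs, over all genes measured. It rests on 4 of the 16 arrays of the study, 2 labelled Irf8KO and 2 labelled WT, taken by their sample titles. The study measured total RNA on single-colour mouse arrays in sorted bone marrow progenitors, the MDPs and the later common monocyte progenitors (cMoPs), and in 32Dcl.3 cells, a mouse myeloid progenitor line, 3 days after transduction with retroviral vectors. The Irf8KO MDPs came from Irf8-deficient mice and the WT MDPs from wild-type mice. Both were analysed as primary cells with no transduction. Irf8KO cMoPs, WT cMoPs, and 32Dcl.3 cells that carried an IRF8 vector with an empty one (IRF8 cells) or empty vectors alone serve below as further readouts. The labels name neither the strain, the age or the sex of the mice, nor the kind of Irf8 deletion, and they number 2 experiments per group without saying whether these used separate animals. The p-values therefore measure the spread between arrays, which may be technical.

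IRF8 is a transcription factor of the interferon regulatory factor family that has weak affinity for DNA alone and binds together with partners such as PU.1, at composite ETS-IRF sites, or with other IRF proteins, at interferon-stimulated response elements. MDPs are bone marrow cells that give rise to monocytes and dendritic cells and carry the receptors KIT, FLT3, CSF1R and CX3CR1. In mice without Irf8, monocytes and several kinds of dendritic cells are scarce, and neutrophils accumulate.

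Signals are given as multiples of the 75th percentile of the processed signal on the same array, so a value of 1 is the brightness of a probe at that percentile. Changes are log2 differences, Irf8KO minus WT, with the standard error (SE) of limma's fit over the 4 arrays, and a gene is said to rise or fall when its adjusted p (Benjamini-Hochberg over all genes tested) was under 0.05. The 75th percentile was 69.9 and 67.8 intensity units on the Irf8KO arrays and 76.7 and 81.0 on the WT arrays, 37.3 to 38.7% of the probes were well above background, and no probe was saturated. Log2 signals correlated at 0.997 between the 2 Irf8KO arrays and at 0.997 between the 2 WT arrays, and at 0.97 between genotypes. The SD of the difference between replicate arrays was 0.226 in Irf8KO and 0.201 in WT. All 4 arrays were on 1 slide, where the genotypes took different positions, so position and genotype cannot be told apart. Xist was well above background on all 4 arrays, and Ddx3y, Eif2s3y, Kdm5d and Uty on none.

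Of the 11070 genes tested, 5500 (49.7%) passed, with 2448 (22.1%) higher and 3052 (27.6%) lower in Irf8KO MDPs. A change of at least 2-fold was seen in 410 genes that rose (3.7%) and in 318 that fell (2.87%). The Irf8KO and WT arrays did not overlap for 8308 genes (75%), with Irf8KO above in 3794 (34.3%) and below in 4514 (40.8%). The median change of all genes was -0.03, and nearly all of the called genes, 5173, were well above background on all 4 arrays. When the arrays were scaled to their medians instead, the median change was -0.12 and the share of higher genes among those called was 28.1%, against 44.5% here, so small changes depend on the scaling. Counts of gene lists are given below with that scaling too where it changes which direction has more members. They stand against the shares of all genes, 22.1% higher and 27.6% lower. Among bulk samples, fewer cells of a type and less RNA per cell cannot be told apart.

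**Figure D1:**
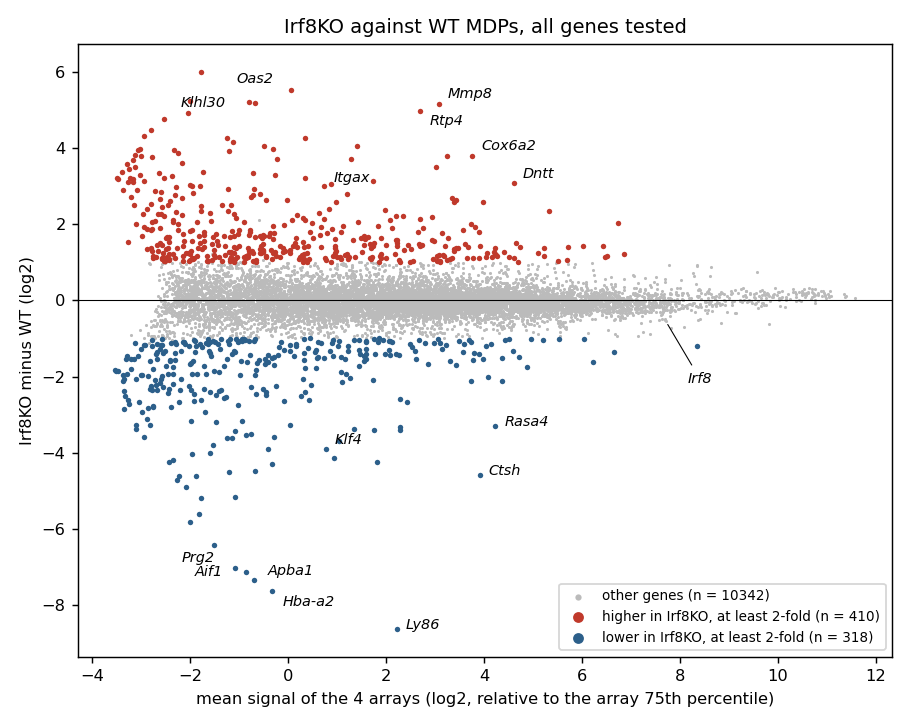
The change of each of the 11070 genes tested (vertical axis, Irf8KO minus WT MDPs, log2) against its mean signal over the 4 arrays (horizontal axis, log2, relative to the array's 75th percentile). Red points are the 410 genes at least 2-fold higher, blue points the 318 at least 2-fold lower and grey points all others; Ly86 lies lowest at -8.62, and Irf8 sits among the brightest genes at -0.55. Genes too dim to measure in 1 genotype are drawn at their measured change.

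The targeted gene was read by 1 probe. Irf8 signals were 174 and 173 in Irf8KO MDPs, against 259.7 and 249.8 in WT MDPs. The genotypes did not overlap, and the change was -0.55 ± 0.043 (adjusted p = 9.72e-07, limma), but the transcript stayed among the brightest on the Irf8KO arrays. The same probe gave 0.0355 and 0.0310 in IRF8 cells and 0.0283 and 0.0152 in 32Dcl.3 cells with empty vectors, and was not well above background on any of these 4 arrays. It gave 57.1 and 58.7 in Irf8KO cMoPs, against 160.5 and 162.2 in WT cMoPs. Since the probe stayed bright in the Irf8KO cells and was dark in IRF8 cells, it does not check the labels.

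Of the 5 measured genes on either side of Irf8 in RefSeq's gene order, Gins2 (-0.56), Emc8 (-0.47), Mthfsd (-0.76), Klhdc4 (-1.01) and Slc7a5 (-0.95) fell and Map1lc3b (0.60) rose. Mthfsd did not pass in limma with normexp background correction (-0.059, adjusted p = 0.536) or with 8 progenitor arrays in one fit (-0.063, adjusted p = 0.538). In the fit of 8 arrays another of its probes was the brightest and stood for the gene. The probes of Mthfsd thus disagree, and its fall rests on 1 of them. 1190005I06Rik passed at 0.87, though not without Irf8KO replicate 1 or WT replicate 2, where it was 0.58 (adjusted p = 0.139) and 0.61 (adjusted p = 0.123). Cox4i1, the nearest measured neighbour on its side, was 475 and 492 in Irf8KO MDPs and 495 and 482 in WT MDPs. It overlapped between the genotypes and changed by -0.02 (adjusted p = 0.805). Fbxo31 (0.07, adjusted p = 0.269) and Gse1 (-0.95, adjusted p = 0.0639) did not pass either, and Gse1 was below background on both Irf8KO arrays. Gse1 passed as lower under 5 alternatives, without Irf8KO replicate 1 among them (-1.53, adjusted p = 0.000714).

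The 5 genes that mark MDPs were read in both genotypes. No other cell type was set beside them, so their detection does not check the label of the cells. Kit was 33.1 and 33.3 in Irf8KO MDPs and 22.1 and 23.3 in WT MDPs, and Flt3, the receptor for the dendritic cell growth factor FLT3 ligand, was 27.1 and 26.8 against 15.3 and 15.7. Cx3cr1, the fractalkine receptor, was 40.9 on both Irf8KO arrays, against 21.2 and 22.1 on the WT arrays. Csf1r, the receptor for macrophage colony-stimulating factor, was 188 and 189 against 205 on both WT arrays, and Cd34, a progenitor sialomucin, was 104 and 101 against 195 on both. All 5 were well above background on all 4 arrays, in both genotypes. Kit rose by 0.54, Flt3 by 0.80 and Cx3cr1 by 0.92, and Cd34 fell by 0.93. Csf1r changed by -0.12 (adjusted p = 0.0265), and leaving out Irf8KO replicate 1 or 2 ended that call (adjusted p = 0.21 and 0.176). Of the 14 tested surface genes of the MDP gate and its neighbours, 6 rose (42.9%, against 22.1% of all genes) and 5 fell (35.7%, against 27.6%), with a median of 0.19, and with median scaling 5 rose and 6 fell.

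The largest change measured on all 4 arrays was a fall. Ly86, which encodes MD-1, the partner of the B cell and myeloid receptor CD180, was 0.212 and 0.258 in Irf8KO MDPs, against 89.3 and 95.3 in WT MDPs. This is a change of -8.62 ± 0.09 (adjusted p = 5.68e-14, limma). The Irf8KO signals were close to those of the faintest probes well above background on the same arrays, 0.169 and 0.161. Ctsh, the lysosomal aminopeptidase cathepsin H, was 3.04 and 3.09 against 74.8 and 73.3, a change of -4.59 ± 0.046. Klf4, a Kruppel-like factor needed for monocyte development, was 0.501 and 0.390 against 6.70 and 6.57, a change of -3.91 ± 0.12.

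The other members of the 20 largest falls that every array could measure had varied roles. Arl5c, an ARF-like GTPase, was 0.510 and 0.412 in Irf8KO MDPs and 7.99 and 8.03 in WT MDPs (-4.13). Rasa4, a calcium-regulated inhibitor of Ras, was 6.196 and 5.73 against 59.8 and 58.4 (-3.31). Rab38, a GTPase of lysosome-related organelles, was 1.51 and 1.59 against 16.7 and 14.3 (-3.32). Fgd2, an exchange factor for CDC42 in antigen-presenting cells, was 2.00 and 1.98 against 12.2 and 12.01 (-2.60), and the phosphoinositide phosphatase gene Inppl1 fell by 2.48. These genes were chosen for the size of their change, which keeps their genotypes apart. The keratin gene Krt18 fell by 4.25, Gdf3, a secreted factor of the TGF-beta family, by 3.70, Nrg1, which encodes the growth factor neuregulin 1, by 3.37, the fatty acid hydroxylase gene Cyp4f18 by 2.66 and the fatty acid elongase gene Elovl7 by 2.63. Ppfia4 (-3.40), 0610040J01Rik (-3.41), Morn4 (-2.74), Glcci1 (-2.52), Gimap6 (-2.47), Ifi211 (-2.63) and the mast cell and basophil protease gene Prss34 (-3.28) complete the 20.

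A further 144 genes that passed were not well above background on either Irf8KO array, and for these the fold is a minimum, taken against the faintest probe well above background or the gene's own signal, whichever was higher on each array. Aif1, a calcium-binding protein of macrophages also called IBA1, was 0.0641 and 0.0333 on the Irf8KO arrays, against 6.42 and 6.57 on the WT arrays. It was at least 39.3-fold lower. Apba1, an adaptor best known from synapses, was 0.0485 and 0.0480 against 7.79 and 7.83, at least 47.3-fold lower. Naip6, of the NAIP family of sensors of bacterial proteins, was at least 18.05-fold lower (means of 0.133 and 2.98), although its near-identical relatives could share the probe. Fnbp1l, a membrane-bending protein, was at least 14.9-fold lower (means of 0.197 and 2.92). The other 4 of the 8 largest bounds in this direction, Hba-a2, Prg2, Ear2 and Hba-a1, belong to erythroid and eosinophil gene lists described below.

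**Figure D2:**
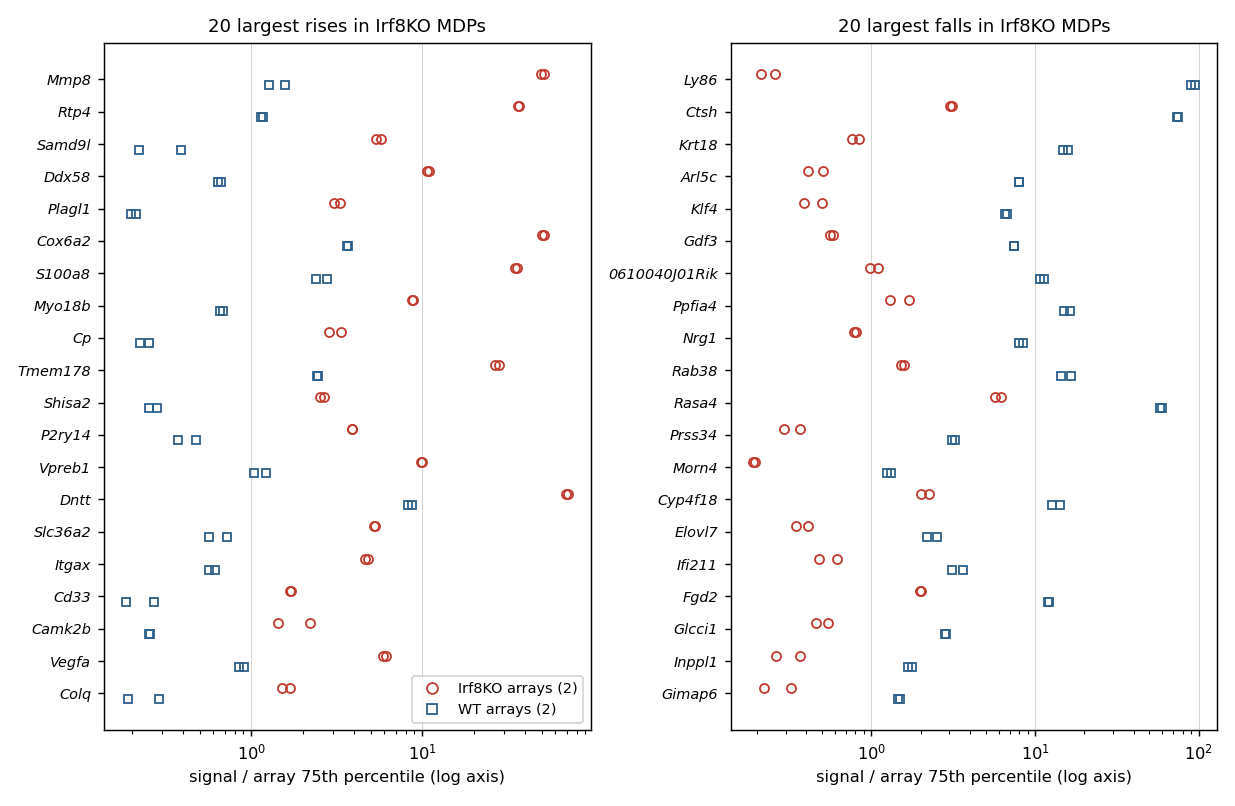
Signal on each array (horizontal axes, multiples of the array's 75th percentile, log axes) of the 20 largest rises (left) and the 20 largest falls (right) among genes that passed and were well above background on all 4 arrays. Red circles are the 2 Irf8KO arrays and blue squares the 2 WT arrays; the genotypes do not overlap for any gene shown, as the choice of the largest changes requires.

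The largest rises included genes of neutrophils, of the interferon response and of early lymphoid cells. Mmp8, the neutrophil collagenase, was 49.7 and 51.2 in Irf8KO MDPs, against 1.58 and 1.27 in WT MDPs, a change of 5.15 ± 0.086 (adjusted p = 2.71e-12). Rtp4, an interferon-induced chaperone, was 36.1 and 36.9 against 1.15 and 1.18 (4.97 ± 0.058). Dntt, the terminal transferase of developing lymphocytes, was 71.6 and 69.5 against 8.66 and 8.20 (3.07 ± 0.046). The rule that chose these genes fixes that their genotypes do not overlap, as was so for 75% of all genes.

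The other large rises were of genes with varied roles. Cox6a2, a cytochrome oxidase subunit best known from heart and muscle, was 49.99 and 51.5 in Irf8KO MDPs and 3.62 and 3.67 in WT MDPs (3.797). Vegfa, the vascular growth factor, was 6.15 and 5.89 against 0.849 and 0.910 (2.78), and Cp, which encodes the copper oxidase ceruloplasmin, was 2.84 and 3.34 against 0.254 and 0.223 (3.70). Itgax, which encodes the CD11c integrin chain carried by dendritic cells, was 4.82 and 4.62 against 0.612 and 0.565 (3.00). Plagl1, an imprinted zinc finger factor, rose by 3.96, the unconventional myosin gene Myo18b by 3.70, Tmem178 by 3.49, Shisa2 by 3.28, the UDP-glucose receptor gene P2ry14 by 3.21, the amino acid transporter gene Slc36a2 by 3.05, the sialic acid receptor gene Cd33 by 2.92, Camk2b, which encodes a calcium-calmodulin kinase chain, by 2.80 and Colq, which encodes the acetylcholinesterase anchor, by 2.77. Of the 108 genes that passed and were not well above background on either WT array, the orphan receptor gene Gpr25 was at least 16.8-fold higher (2.40 and 2.25 against 0.0362 and 0.0369) and Klhl30 at least 25.1-fold (3.46 and 3.52 against 0.0873 and 0.102). The transporter genes Slc13a3 and Slc27a2 were at least 14.01-fold and 10.99-fold higher (means of 1.95 and 1.54 in Irf8KO MDPs, against 0.110 and 0.0428 in WT MDPs), the ADP receptor gene P2ry13 at least 6.93-fold (0.962 and 0.0928) and the gelatinase gene Mmp2 at least 6.49-fold (0.901 and 0.0334).

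Transcription factors of monocytes and dendritic cells moved in both directions. Of 36 tested 16 rose (44.4%, against 22.1% of all genes) and 11 fell (30.6%, against 27.6%), with a median of 0.08. With each array scaled to its median 14 rose and 15 fell, with a median of -0.01. After Klf4, the largest falls on all 4 arrays were those of Irf5 and Pou2f2. Irf5, a driver of inflammatory cytokine genes, was 1.58 and 1.42 in Irf8KO MDPs and 4.83 and 5.08 in WT MDPs (-1.73 ± 0.088). Pou2f2, which encodes OCT2, was 1.59 and 1.91 against 4.19 and 4.46 (-1.31 ± 0.099). Cebpe, a factor of late granulocyte maturation, was 12.6 and 12.1 against 18.1 and 19.4 (-0.60), and Runx3 fell by 0.43. Of the factors that rose, Irf4, the closest relative of Irf8, was 0.618 and 0.425 in Irf8KO MDPs and below background in WT MDPs (0.0350 and 0.0743), at least 3.69-fold higher. Bcl6, a repressor, was 7.94 and 7.34 against 3.04 and 2.71 (1.41), and Id2, an inhibitor of basic helix-loop-helix factors needed by conventional dendritic cells, was 1.48 and 1.501 against 0.605 and 0.608 (1.30). Gfi1, a repressor that favours granulocytes, was 36.7 and 35.5 against 18.8 and 18.04 (0.97), Cebpd rose by 0.96, Cebpa, the early granulocyte and monocyte factor, by 0.43, and Cebpb by 0.25. Spi1, which encodes PU.1, was 2.24 and 2.41 against 2.52 and 2.99 (-0.24, adjusted p = 0.0646). Spi1 passed as lower under 5 alternatives, without WT replicate 1 among them (-0.36, adjusted p = 0.00816). The factor genes Batf3, Zbtb46, Spib and Maf were not well above background in either genotype.

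**Figure D3:**
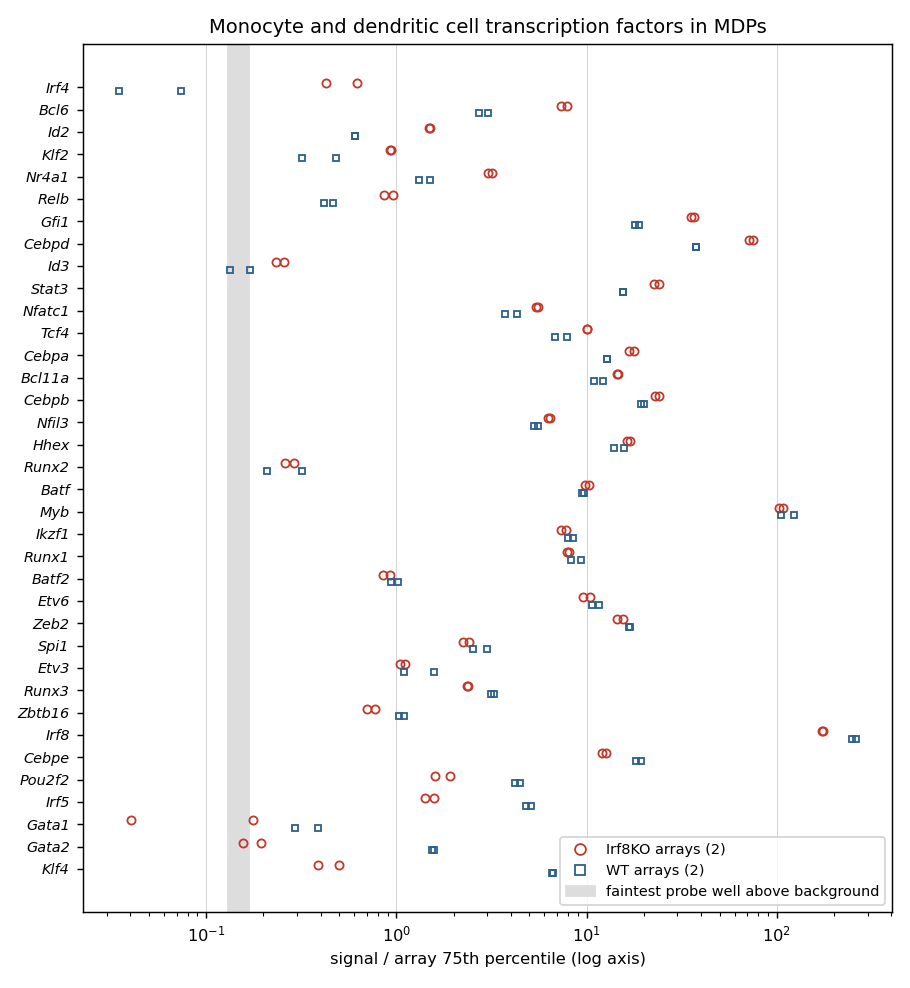
Signal on each array (horizontal axis, multiples of the array's 75th percentile, log axis) of the 36 tested transcription factor genes of the monocyte and dendritic cell list, ordered by their change. Red circles are the 2 Irf8KO arrays, blue squares the 2 WT arrays, and the grey band spans the faintest probes well above background on the 4 arrays; Irf4 at the top lies below the band in WT, and Klf4 at the bottom stands at 0.501 and 0.390 in Irf8KO and 6.70 and 6.57 in WT.

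Genes described in other work as direct or indirect IRF8 targets were called in shares of 38.5% higher and 30.8% lower, against 22.1% and 27.6% of all genes. Of 13 tested, 5 rose and 4 fell, with a median of 0.02. With each array scaled to its median 4 rose and 5 fell, with a median of -0.08. Next to Klf4, the survival gene Bcl2 fell by 1.02 (6.09 and 5.57 in Irf8KO MDPs, against 11.2 and 12.4 in WT MDPs) and Ctsc, the protease that activates granule enzymes, by 0.74. Bcl6 rose by 1.41, the cytokine gene Il18 by 1.15 and Cybb, the catalytic chain of the phagocyte oxidase, by 0.65.

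Within the IRF family of 12 tested genes, 5 rose and 5 fell, or 4 and 6 with median scaling. Irf7, the factor that amplifies the type I interferon response, was 0.834 and 0.730 in Irf8KO MDPs, against 0.303 and 0.198 in WT MDPs (1.67). Irf1 was 35.5 and 36.1 against 23.7 and 22.9 (0.62), and Irf9 fell by 0.34. Of 37 tested interferon-stimulated genes 22 rose (59.5%, against 22.1% of all genes) and 8 fell (21.6%, against 27.6%), with a median of 0.39. Oas2, an antiviral enzyme that makes oligoadenylates, was 7.16 and 6.92 in Irf8KO MDPs and was not well above background in WT MDPs (0.140 and 0.169), at least 45.7-fold higher. Ddx58, which encodes the RNA sensor RIG-I, was 10.95 and 10.6 against 0.636 and 0.668 (4.05), and Samd9l, an interferon-induced restriction factor, was 5.73 and 5.39 against 0.221 and 0.388 (4.25). Isg15, a ubiquitin-like protein, rose by 1.17 and Oasl2 by 1.95. Against these, Trim30a fell by 1.07 (2.80 and 3.09 against 6.09 and 6.21), Ifi204, of the DNA-binding HIN family, by 0.65, and Ifi44 was at least 2.10-fold lower, so members of the response moved apart. The interferon receptor gene Ifngr1 was 139.6 and 141 against 55.9 and 49.5 (1.42). Among the interferon-induced GTPases, Gbp2 rose by 1.43 and Gbp3 fell by 1.20, and the 11 tested had 3 in each direction, or 3 higher and 4 lower with median scaling.

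**Figure D4:**
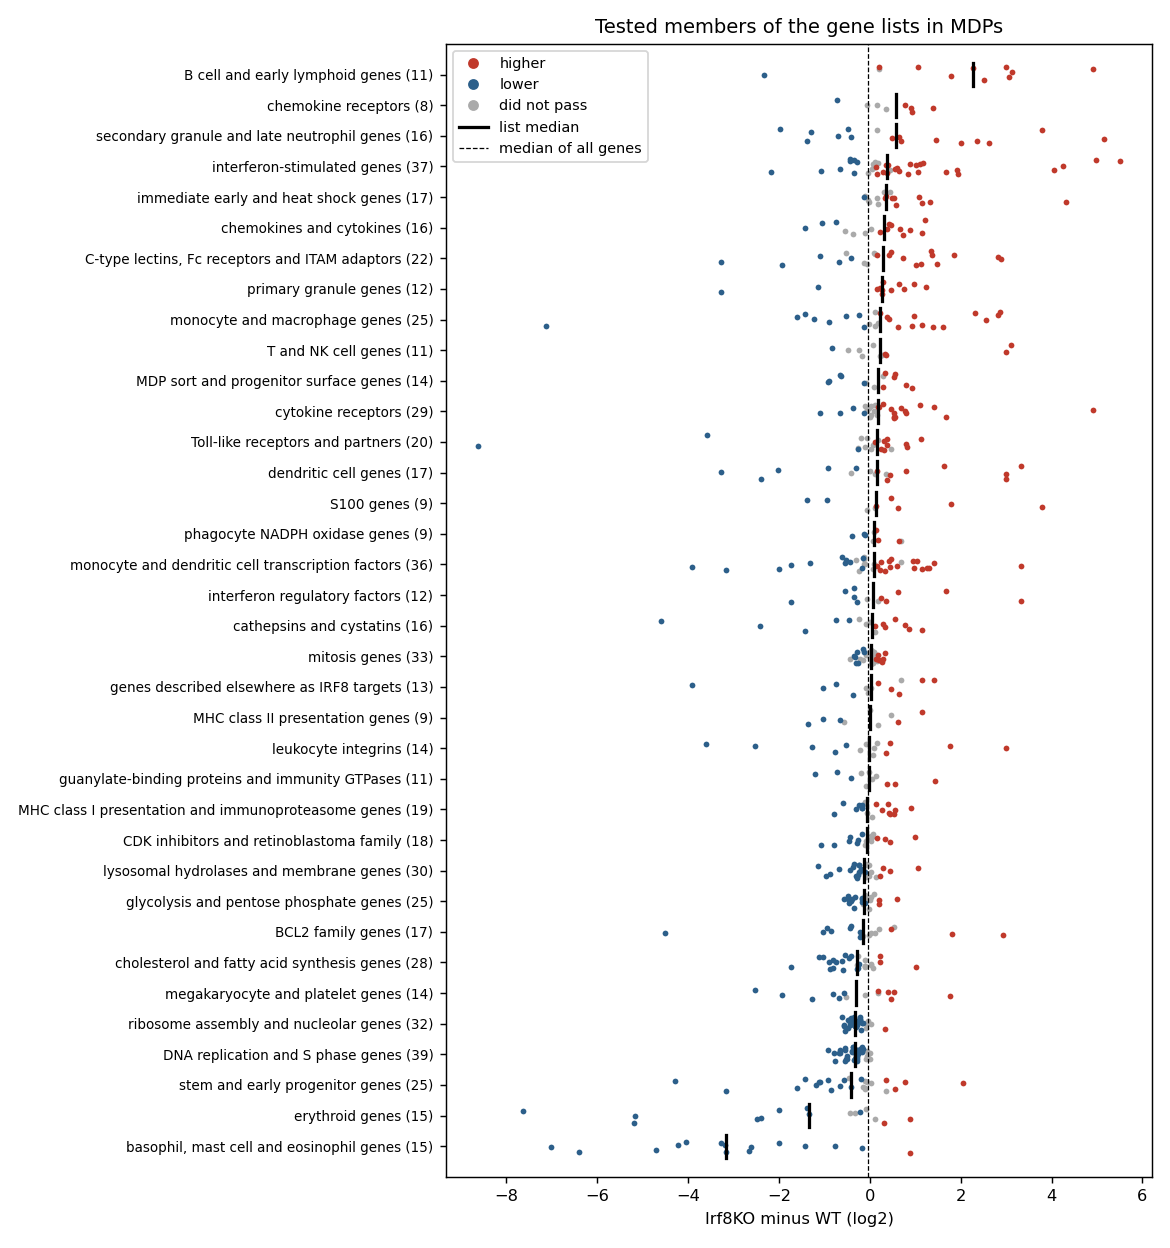
Change of each tested member (horizontal axis, Irf8KO minus WT MDPs, log2) of the 36 gene lists, ordered by their median, with the number of tested members beside each name. Red points passed as higher, blue points as lower and grey points did not pass; thick bars are list medians, from -3.16 for basophil, mast cell and eosinophil genes to 2.27 for early lymphoid genes, and the dashed line is the median of all genes. Members too dim to measure in 1 genotype are drawn at their measured change.

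Of the 22 early lymphoid genes on the list, 11 could be tested. Of these 9 rose (81.8%, against 22.1% of all genes) and 1, Vpreb3, fell (9.09%, against 27.6%). Of the 11, 7 were well above background on all 4 arrays, 3 passed the filter through Irf8KO alone and 1 through WT alone. For a gene that passes through 1 genotype alone, the filter itself favours a difference. The median was 2.27, or 1.795 with genes too dim in 1 genotype at their bound, and 0.50 over all listed genes with a probe and no filter on dim probes. The summed signal of the 11 was 132.9 and 129.8 in Irf8KO MDPs, against 48.2 and 48.7 in WT MDPs. Such a sum follows its brightest members. Dntt, the bright early lymphoid gene described above, was 71.6 and 69.5 against 8.66 and 8.20. Vpreb1, a surrogate light chain of the pre-B cell receptor whose near-identical relative Vpreb2 could share its probe, was 9.82 and 9.95 in Irf8KO MDPs, against 1.03 and 1.22 in WT MDPs (3.14). Il7r, the receptor chain for interleukin 7, was 1.30 and 1.35 against 0.0590 and 0.0333, at least 9.57-fold higher, and Rag2, of the recombinase, was 0.921 and 1.14 against 0.199 and 0.226 (2.27). Blnk, an adaptor of B cell receptor signalling, rose by 1.79, and Il2rg, the cytokine receptor chain that pairs with IL7R, by 1.67. The defining B cell genes Cd79a, Pax5, Ebf1 and Ms4a1, and the recombinase gene Rag1, were not well above background in either genotype. Among 11 tested genes of T and NK cells 4 rose (36.4%, against 22.1% of all genes) and 1 fell (9.09%, against 27.6%). Of the 11, 7 were well above background on all 4 arrays, and 2 passed the filter through each genotype alone. Klrd1, at least 5.53-fold higher, and Klrb1c, at least 2.36-fold, were the 2 that passed through Irf8KO alone. On this list 17 of 28 genes were too dim, Cd3d and Cd3g among them.

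Of 15 tested genes of basophils, mast cells and eosinophils, 14 fell (93.3%, against 27.6% of all genes). The other 1, the proteoglycan gene Srgn of many blood cells, rose (6.67%, against 22.1%). The median was -3.16, or -2.28 at the bounds. Only 5 of the 15 were well above background on all 4 arrays, 9 passed the filter through WT alone, and with no filter the median was -0.73. Prg2, the eosinophil major basic protein, was 0.0420 and 0.0414 in Irf8KO MDPs, against 5.61 and 5.20 in WT MDPs, at least 32.7-fold lower. Ear2, an eosinophil ribonuclease with near-identical relatives that could share its probe, was at least 19.6-fold lower (means of 0.0384 and 3.23), and Cpa3, the mast cell carboxypeptidase, at least 6.39-fold (0.0402 and 0.0407 against 1.05 and 1.06). Mcpt8, a basophil protease, was 2.77 and 2.38 against 6.56 and 7.36 (-1.44). Gata2, a factor of these lineages and of stem cells, was 0.156 and 0.194, well above background on 1 of 2 Irf8KO arrays, against 1.54 and 1.57 (-3.16). The defining gene Ms4a2 was not well above background in either genotype. Of 15 tested erythroid genes 9 fell (60%, against 27.6% of all genes) and 2 rose (13.3%, against 22.1%). The median of the 15 was -1.35, or -0.997 at the bounds. Of these 6 passed the filter through WT alone, and with probes well above background on all 4 arrays the median was -0.21. Hba-a2 and Hba-a1, the alpha globins, whose near-identical sequences the probes may not separate, were at least 68.2-fold and 17.1-fold lower (means of 0.0579 and 0.0785 in Irf8KO MDPs, against 11.3 and 2.83 in WT MDPs), and the beta globin gene Hbb-bt was at least 10.6-fold lower. Car2, a carbonic anhydrase, fell by 2.40 and the repressor gene Gfi1b by 1.35. The erythroid factor gene Klf1 was too dim in both genotypes. The summed signal of the tested erythroid genes was 93.2 and 93.3 in Irf8KO MDPs, against 104.6 and 102.4 in WT MDPs, and that of the tested basophil list 485.6 and 482 against 304 and 309, where Srgn alone gave 445 and 442 against 237 and 240.4. The part of other cells in the sorted samples in these changes, the lymphoid ones included, was not tested. Of 25 tested stem and early progenitor genes 13 fell (52%, against 27.6% of all genes) and 4 rose (16%, against 22.1%), with a median of -0.41, or -0.11 with no filter. Eng, a coreceptor for TGF-beta, fell by 1.44, and the homeobox gene Meis1 was 3.03 and 2.90 against 6.57 and 6.196 (-1.11), whereas Prom1, which encodes CD133, rose by 2.04.

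Primary granule genes were mostly higher, while later granule and neutrophil genes moved in both directions. Of 12 tested genes of the primary granule list 10 rose (83.3%, against 22.1% of all genes), with a median of 0.28. The 2 that fell (16.7%, against 27.6%) were Cd63 and Prss34, a mast cell and basophil protease gene. The elastase gene Elane was 1001 and 979.9 in Irf8KO MDPs, against 586 and 593 in WT MDPs (0.75), and Prss57, a related serine protease, was 25.5 and 25.6 against 11.2 and 10.5 (1.24). Of 16 later granule and neutrophil genes, 9 rose (56.2%, against 22.1% of all genes) and 6 fell (37.5%, against 27.6%), with a median of 0.57, or 0.15 with 8 progenitor arrays in one fit. S100a8 was 34.97 and 35.7 against 2.76 and 2.40 (3.78 ± 0.067), while S100a9, which encodes the other chain of the calprotectin dimer, was 0.726 and 0.836 against 2.19 and 1.87 (-1.38 ± 0.13). The pair thus moved in opposite directions. Chil3, a chitinase-like protein, was 8.85 and 9.09 against 1.70 and 1.805 (2.36), Wfdc21 rose by 2.63 and Lcn2, the iron-siderophore binder lipocalin 2, by 1.46. Ifitm6 fell by 1.29, Camp, an antimicrobial peptide of secondary granules, was at least 1.66-fold lower, and the secondary granule genes Ltf and Ngp were not well above background in either genotype.

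Genes of monocytes and macrophages rose in 13 of 25 cases (52%, against 22.1% of all genes) and fell in 8 (32%, against 27.6%). The median was 0.23. Apoe, the lipid carrier of macrophages, was 38.02 and 38.9 in Irf8KO MDPs, against 6.64 and 6.34 in WT MDPs (2.57). Ccr2, the receptor that draws monocytes out of the marrow, was 20.7 on both Irf8KO arrays, against 8.07 and 7.75 (1.39), and Adgre1, which encodes F4/80, was 4.82 and 4.89 against 2.20 and 2.19 (1.15). Mrc1, the mannose receptor, was at least 3.28-fold higher. Beside Aif1, the matrix protein gene Tgfbi was 5.51 and 5.88 against 17.7 and 16.7 (-1.59), and Lgals3, which encodes galectin 3, fell by 1.22. Genes of this lineage were thus found among both the rises and the falls.

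Receptors of innate immunity and of cytokines were described by list. In the C-type lectin, Fc receptor and ITAM adaptor list 12 of 22 tested rose (54.5%, against 22.1% of all genes) and 5 fell (22.7%, against 27.6%), with a median of 0.29. Trem3, an activating receptor of myeloid cells, was 22.8 and 22.2 in Irf8KO MDPs, against 6.42 and 6.10 in WT MDPs (1.85), and Trem1 rose by 1.34 and the low-affinity Fc receptor gene Fcgr3 by 1.13. Clec9a, the dead cell receptor of cross-presenting dendritic cells, was 0.0379 and 0.0370 against 0.417 and 0.316, at least 2.20-fold lower. Among Toll-like receptors and their partners 9 of 20 rose (45%) and 3 fell (15%), with a median of 0.15, but with median scaling 5 rose and 4 fell. Tlr4, the lipopolysaccharide receptor, rose by 1.13 and Tlr7, a sensor of single-stranded RNA, by 0.82, while Tlr12, a sensor of protozoan profilin, was 0.283 and 0.2001 against 2.82 and 2.85, with 1 of 2 Irf8KO arrays well above background (-3.58). Cytokine receptors rose in 15 of 29 cases (51.7%) and fell in 4 (13.8%), or in 13 and 7 with median scaling. Of the chemokine receptors 4 of 8 rose (50%) and 1, Cxcr4, fell by 0.73. Of the chemokines and cytokines 9 of 16 rose (56.25%) and 3 fell (18.75%), against 22.1% and 27.6% of all genes. With median scaling 4 rose and 4 fell. Ccl9 was 174 and 179 against 74.9 and 76.3 (1.22), and Ccl6 was 1.90 and 1.79 against 4.71 and 5.16 (-1.42).

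Antigen presentation genes were mixed. In the dendritic cell list 8 of 17 tested rose (47.1%, against 22.1% of all genes) and 5 fell (29.4%, against 27.6%), with a median of 0.15. By at least 2-fold 4 rose and 3 fell. Dpp4, a surface peptidase of cross-presenting dendritic cells, was 0.519 and 0.598 in Irf8KO MDPs, against 2.76 and 3.11 in WT MDPs (-2.40), and Cd24a, a surface sialoprotein, was 8.28 and 8.51 against 33.4 and 34.3 (-2.01). Siglech, a marker of plasmacytoid dendritic cells, was 74.99 and 72.6 against 71.0 and 66.4 (0.10, adjusted p = 0.0753), and it passed as higher under 5 alternatives, most so with the mean over its 2 probes (1.34, adjusted p = 3.85e-05), which disagree. Of 9 tested genes of MHC class II presentation 2 rose and 3 fell. H2-Ab1, a class II beta chain, was 26.0 and 27.3 against 12.2 and 11.9 (1.15), whereas H2-DMa, of the peptide editor, was 14.2 and 15.9 against 29.7 and 32.0 (-1.03) and Cd74, the invariant chain, was at least 1.98-fold lower, with H2-Aa too dim in both genotypes. For class I, H2-K1 was 453 and 448 against 242 and 236 (0.91), while the immunoproteasome gene Psmb8 fell by 0.59 and Tapbpl, a peptide editor, by 0.80, with 8 of 19 genes rising and 7 falling, or 7 and 9 with median scaling. Cathepsins and cystatins rose in 7 and fell in 5 of 16 cases, or in 6 each with median scaling. Ctss, the protease that trims the invariant chain, was 9.04 and 9.10 against 24.8 and 23.7 (-1.42), and Ctsl, its counterpart in thymic epithelium, rose by 1.15. Lysosomal genes fell in 16 of 30 cases (53.3%, against 27.6% of all genes) and rose in 4 (13.3%, against 22.1%), with a median of -0.13. With median scaling 20 fell and 2 rose. The falls were led by Cd63 at -1.14 and Hexa, a ganglioside hydrolase, at -0.87. Leukocyte integrins had 4 rising and 5 falling of 14, from Itga1, at least 9.56-fold lower, to Itgax, and the phagocyte oxidase genes 3 and 3 of 9, or 1 and 3 with median scaling.

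Most lists of growth genes were lower by small amounts, but that of mitosis genes had as many rising as falling. Of all genes, 22.1% rose and 27.6% fell. Of 39 tested genes of DNA replication and S phase none rose and 32 fell (82.1%), with a median of -0.32. Ccne1, the cyclin that starts S phase, was 9.63 and 9.09 in Irf8KO MDPs, against 18.1 and 17.5 in WT MDPs (-0.93), the factor gene E2f1 fell by 0.78, Tk1, which encodes thymidine kinase, by 0.69 and Mcm2, of the replicative helicase, by 0.49. Mitosis genes had 7 rising and 7 falling of 33 (21.2% each), but 3 and 11 with median scaling. Ribosome assembly genes fell in 26 of 32 cases (81.25%) and rose in 1 (median -0.32). Fbl, which encodes the methyltransferase fibrillarin, was 46.0 and 46.7 against 67.3 and 68.7 (-0.55). Genes of cholesterol and fatty acid synthesis fell in 16 and rose in 3 of 28 cases (median -0.28), with Fdps, which makes farnesyl diphosphate, at -1.02, while Hmgcs1, an early enzyme of the same pathway, rose by 1.01. Glycolysis genes fell in 12 and rose in 3 of 25 cases (48% and 12%, median -0.14). The kinase inhibitor gene Cdkn1a, which encodes p21, was 4.68 and 4.69 against 2.46 and 2.27 (0.99). In its list, CDK inhibitors and the retinoblastoma family, 4 of 18 tested rose (22.2%) and 7 fell (38.9%), or 3 and 8 with median scaling. Of 17 BCL2 family genes 8 fell (47.1%) and 3 rose (17.6%). Bcl2l14 was at least 12.5-fold lower, and the death-promoting genes Pmaip1 and Bbc3 changed by 1.798 and -0.95. Immediate early and heat shock genes rose in 9 and fell in 1 of 17 cases (52.9% and 5.88%). Fos was 1.62 on both Irf8KO arrays, against 0.708 and 0.587 (1.33).

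Promoters of the changed genes were searched, on both strands, for the letters of sites that IRF proteins are known to bind, as 250 bases before to 50 bases after the start in RefSeq (GRCm38.p6). The letters were GAAA, any 2 bases and GAAA for the core of an interferon-stimulated response element, GGAA, any 2 bases and GAAA for an ETS-IRF composite, and GAAA, any 2 bases and GGAA for the same in the other order. The response element core was found in promoters of 19 of 255 genes at least 2-fold lower (7.45%) and of 27 of 301 at least 2-fold higher (8.97%), against 333 of 8950 genes tested (3.72%) and 3.99% of all 27025 genes with a promoter. The ETS-IRF letters were found in 3.92% of the lower and 2.99% of the higher genes, against 2.8% of those tested and 3.16% of all. The other order was found in 3.14% of the lower and 4.32% of the higher genes, against 3.44% of those tested and 3.18% of all. A match is a description of letters and not a binding site. The 3 largest changes in each direction among the named genes whose promoter holds such letters, with genes too dim in 1 genotype taken at their bound, are shown, to give the sequence beside the response, with the matching letters in capitals. The first 3 rose and the last 3 fell, and each runs 5′ to 3′ in the direction of the gene.
Mmp8: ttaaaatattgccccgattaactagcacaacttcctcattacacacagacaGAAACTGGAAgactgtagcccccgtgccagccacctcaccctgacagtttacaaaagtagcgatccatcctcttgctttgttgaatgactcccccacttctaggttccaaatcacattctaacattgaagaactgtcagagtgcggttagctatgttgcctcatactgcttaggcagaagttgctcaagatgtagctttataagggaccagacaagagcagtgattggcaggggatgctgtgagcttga
Samd9l: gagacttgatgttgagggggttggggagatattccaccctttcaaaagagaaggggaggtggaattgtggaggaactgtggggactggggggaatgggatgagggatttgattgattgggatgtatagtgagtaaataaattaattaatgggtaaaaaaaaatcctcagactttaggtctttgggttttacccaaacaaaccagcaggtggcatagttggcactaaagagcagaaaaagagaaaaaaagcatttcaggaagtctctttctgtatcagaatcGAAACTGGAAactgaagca
Ddx58: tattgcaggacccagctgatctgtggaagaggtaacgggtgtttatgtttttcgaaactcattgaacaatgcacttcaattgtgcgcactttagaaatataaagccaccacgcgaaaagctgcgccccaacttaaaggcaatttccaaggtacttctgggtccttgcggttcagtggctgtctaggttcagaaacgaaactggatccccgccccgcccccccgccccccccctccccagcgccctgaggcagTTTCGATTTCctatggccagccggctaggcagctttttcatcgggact
Aif1: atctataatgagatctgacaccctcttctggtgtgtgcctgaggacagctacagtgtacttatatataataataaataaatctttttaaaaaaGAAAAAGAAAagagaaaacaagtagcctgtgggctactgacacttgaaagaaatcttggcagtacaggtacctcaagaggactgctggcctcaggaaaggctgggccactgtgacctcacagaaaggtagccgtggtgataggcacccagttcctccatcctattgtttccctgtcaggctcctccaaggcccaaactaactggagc
Ifi211: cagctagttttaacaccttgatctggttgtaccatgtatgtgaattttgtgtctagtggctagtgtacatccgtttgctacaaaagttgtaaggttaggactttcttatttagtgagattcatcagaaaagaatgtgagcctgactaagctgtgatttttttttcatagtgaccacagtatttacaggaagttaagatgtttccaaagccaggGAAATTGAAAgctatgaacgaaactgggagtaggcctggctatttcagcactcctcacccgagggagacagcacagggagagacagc
Inppl1: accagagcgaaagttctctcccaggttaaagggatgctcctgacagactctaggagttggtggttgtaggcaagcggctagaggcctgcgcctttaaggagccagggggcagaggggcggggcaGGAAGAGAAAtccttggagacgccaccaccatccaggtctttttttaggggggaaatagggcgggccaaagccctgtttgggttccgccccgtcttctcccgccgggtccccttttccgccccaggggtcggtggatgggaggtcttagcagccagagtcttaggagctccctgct
These lie, in GRCm38.p6, at chr9:7558179-7558478 on the plus strand for Mmp8, chr6:3399522-3399821 on the minus strand for Samd9l and chr4:40239776-40240075 on the minus strand for Ddx58. They lie at chr17:35176003-35176302 on the minus strand for Aif1, chr1:173912997-173913296 on the minus strand for Ifi211 and chr7:101838177-101838476 on the minus strand for Inppl1. The letters are those of the response element core in Aif1 and Ifi211, which begin 157 and 37 bases before the start, and in Ddx58, which begin at base 3 after it on the opposite strand, and of the ETS-IRF composite in Inppl1, 126 bases before it. In Mmp8 and Samd9l they are those of the IRF-ETS order, 199 bases before and 32 bases after the start. Of the 15 largest rises with a promoter 6 held a match, as did 3 of the 15 largest falls, against 826 of the 8950 genes tested (9.23%).

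The genes changed at least 2-fold in MDPs were then read in arrays that had no part in choosing them. In Irf8KO against WT cMoPs, 260 of the 318 lower genes could be tested. Of these, 228 were lower there too (87.7%) and 5 higher, and 180 were lower by at least 2-fold (69.2%). Among all 10769 genes tested at both stages 38.5% were lower and 27.6% higher in cMoPs, and 3.55% and 3.97% by at least 2-fold. Of the 410 higher genes 332 could be tested in cMoPs, where 298 were higher (89.8%), 6 lower and 231 higher by at least 2-fold (69.6%). Seen from cMoPs, the shared genes were 47.1% of the 382 lower and 54.1% of the 427 higher by at least 2-fold. Rasa4 changed by -5.15 and Krt18 by -4.997 in cMoPs, and Rtp4 by 5.17, while Dntt (0.17, adjusted p = 0.373) and Cox6a2 (0.78) changed less there than in MDPs.

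The second readout was 32Dcl.3 cells with an IRF8 vector against those with empty vectors. Of the lower genes in Irf8KO MDPs 230 could be tested there, and 87 rose with IRF8 (37.8%) while 65 fell (28.3%). By at least 2-fold 44 rose (19.1%) and 13 fell (5.65%). Among all 10414 genes tested in both 25.4% rose and 29.9% fell, and 2.77% and 0.912% by at least 2-fold. Aif1 was 23.1 and 22.6 in IRF8 cells, against 2.27 and 2.47 in cells with empty vectors (3.27 ± 0.040), Rasa4 was 13.2 and 13.95 against 1.01 and 1.09 (3.69 ± 0.051) and Arl5c was 1.99 and 1.91 against 0.220 and 0.202 (3.21 ± 0.072). Cyp4f18 (1.75), Tlr12 (1.63), Fgd2 (1.17) and Irf5 (1.12) rose with the IRF8 vector as well, whereas Klf4 was 0.434 and 0.420 against 0.387 and 0.420 (0.08, adjusted p = 0.491). Of the higher genes 288 could be tested, of which 63 fell with IRF8 (21.9%) and 104 rose (36.1%), and by at least 2-fold 28 fell (9.72%) and 44 rose (15.3%). Ddx58 was 1.60 and 1.64 in IRF8 cells, against 4.35 and 4.27 in cells with empty vectors (-1.41), and Samd9l fell by 1.16 and Cox6a2 by 1.71 there, opposite to MDPs, while Bcl6 (4.32), Itgax (2.55) and Id2 (2.35) rose in both.

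**Figure D5:**
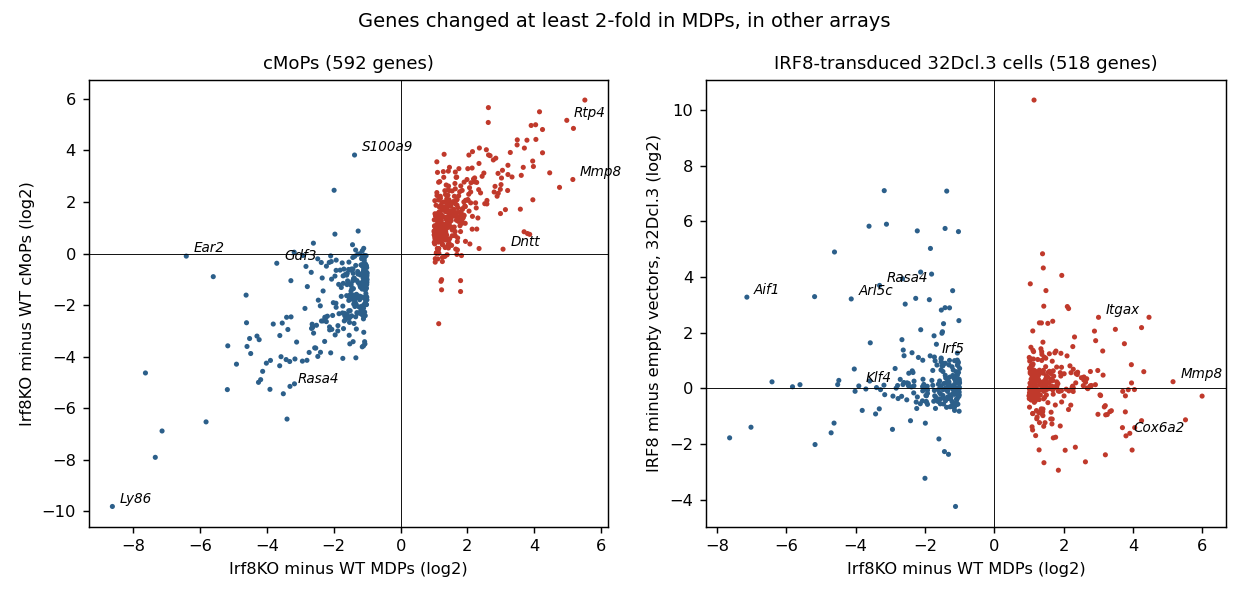
Genes changed at least 2-fold in MDPs (horizontal axes, Irf8KO minus WT MDPs, log2), set against their change in Irf8KO minus WT cMoPs (left, 332 rises and 260 falls) and in 32Dcl.3 cells with an IRF8 vector minus empty vectors (right, 288 rises and 230 falls). Red points rose and blue points fell in MDPs. In cMoPs 87.7% of the falls fell, against 38.5% of all genes, and 89.8% of the rises rose, against 27.6%. With the IRF8 vector 37.8% of the falls and 36.1% of the rises rose, against 25.4% of all genes. Of each, 28.3% and 21.9% fell, against 29.9%.

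A fit over all 8 progenitor arrays tested the difference of the Irf8KO effect between cMoPs and MDPs. It was positive in 1390 of 11963 genes (11.6%) and negative in 1590 (13.3%). With each array scaled to its median it was positive in 498 genes and negative in 3711, so this balance depends on the scaling. The stages were on different slides, so stage and slide cannot be told apart.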

How the data were processed

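Cy3-labelled total RNA was hybridised to single-colour Agilent arrays (16 arrays, 8 groups of 2). Per the file headers, the authors scanned and read them with Agilent Feature Extraction 10.7.3.1, protocol GE1_107_Sep09, on a design annotated to mm9. The deposited processed signal is a background-subtracted intensity per spot, not scaled between arrays. Flags of 0 or 1 per spot, another kind of deposited column, mark spots that are outliers, saturated or well above background. The series values the authors deposited are intensities equal to the scanner's times 1 constant per array. The sources used here do not name the software of that scaling.

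Outlier spots and controls were left out, spots of a probe were averaged, and log2 intensity minus the log2 75th percentile of the array was used. Of 55681 probes 26762 were matched to 1 RefSeq symbol (GRCm38.p6), 0 to several and 28919 to none, and the brightest probe stood for a gene. It was chosen apart in each fit, so the probe of a gene can differ between MDPs, cMoPs and 32Dcl.3 cells. Genes well above background on both arrays of at least 1 MDP group were tested with limma 3.58.1 in R 4.3.3 (lmFit and eBayes with an intensity trend, 2 residual degrees of freedom, Benjamini-Hochberg adjustment), using the 4 MDP arrays alone. The cMoP and 32Dcl.3 comparisons were fitted apart, and the method was tested on simulated data. The simulation had independent noise and few changed genes, with no error of scaling or slide position. It therefore does not show how such errors bear on the calls made here. The number of arrays limits the precision. Deviations of same-numbered arrays correlated at 0.0539. With 2 arrays per group this cannot show whether the experiment numbers pair them, and the main fit left them unpaired.

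The members and lists were chosen with earlier results of these data known. Named genes are the 20 largest rises and falls on all 4 arrays, the 8 largest bounds in each direction, Irf8 and its 5 measured neighbours on either side, list members, and the 10 largest stage differences in each direction. Alternatives changed the scaling, the background correction, the filter, the probe rule, the arrays in the fit, the trend, a replicate block and each array left out.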

Additional observations from a re-analysis of the deposited data

Results flagged for a closer look

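The Irf8KO effect differed between cMoPs and MDPs, by the test of the difference in 1 limma fit of the 8 progenitor arrays, for 1918 of the 5499 genes called in MDPs. In 291 of these the effect in cMoPs was called in the opposite direction, 124 being lower in Irf8KO MDPs and higher in Irf8KO cMoPs and 167 the reverse. The brightest probe was chosen apart in each fit, so for a gene with several probes the stages may be read by different probes. How many of the 291 this touches was not tested. The MDP arrays that chose the genes called in MDPs also entered the difference, which favours a called difference among them. Over all 11963 genes tested the difference was positive in 11.6% and negative in 13.3%. With each array scaled to its median it was positive in 498 genes and negative in 3711. The stages were hybridised on different slides, so stage and slide cannot be told apart.

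The differences below are fitted values (effect in cMoPs minus effect in MDPs, log2). Where a gene was below background in a genotype or stage, neither the size of its difference nor its place in the order is measured, and S100a9 is the only one of the 20 that was well above background on all 8 arrays. The largest positive differences included eosinophil and mast cell genes that were low or below background in cMoPs of both genotypes, with Ear2 at 6.31, Prg2 at 5.99, Rnase2a at 4.71, Ear1 at 4.02, Ear10 at 3.24 and Cpa3 at 3.098. Clnk (3.67) and Hnf4a (3.65) were not well above background on any cMoP array either. Of the neutrophil genes among them, S100a9 differed by 5.20, being 175.2 and 189.9 in Irf8KO cMoPs, against 13.1 and 12.7 in WT cMoPs, and Camp differed by 4.45, being 12.05 and 13.6 against 2.32 and 2.34. Both were thus higher in Irf8KO cMoPs and lower in Irf8KO MDPs.

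The largest negative differences by the fit were Gpr25 at -6.00, Rnd3 at -4.86, Il7r at -4.83, Slc27a2 at -4.69, Klhl30 at -4.42, Lgmn at -4.38, Hspb1 at -4.24, Tspan12 at -3.90, Cd86 at -3.86 and Thbs1 at -3.71. In cMoPs, Gpr25 was well above background on 1 array of each genotype, Lgmn and Cd86 on the WT arrays only, and the other 7 on none, so for these 7 the difference is that of a change seen in MDPs against signals at background in cMoPs. Lgmn, the lysosomal protease legumain, was 5.23 and 5.13 in Irf8KO MDPs, against 3.22 and 2.81 in WT MDPs, and was below background in Irf8KO cMoPs, against 0.623 and 0.625 in WT cMoPs.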

How the results depend on the processing

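Across the alternatives, 603 to 728 of the 728 genes changed at least 2-fold kept their call, except that 445 of them could be tested with probes well above background on all 4 arrays, of which 444 kept it. The genes called numbered 3772 with no filter on dim probes, 4010 with no intensity trend and 6155 with 8 arrays in one fit, against 5500 as reported. The share of these that were higher was 28.1% with each array scaled to its median and 33.8% with normexp background correction. With normexp, 132 genes were higher and 122 lower by at least 2-fold. With probes detected on all 4 arrays 170 were lower by at least 2-fold. Of the genes called as reported, 67 changed sign with the mean over the probes of a gene and 61 with normexp. A further 5 did so with 8 arrays in one fit and 2 with quantile normalization. With 8 arrays a different probe can be the brightest and stand for a gene, as for Mthfsd. The stage difference with median scaling was positive in 498 and negative in 3711 genes. Shares of changed genes in the other arrays, alternatives chosen after seeing the data, moved with normexp to 96.6% (lower in cMoPs too), 48.0% (lower genes that rose in IRF8 cells) and 97.6% (higher in cMoPs too), with probes detected on all 4 arrays to 95.1% and 44.8%, and with 8 arrays in one fit to 85.5% (higher in cMoPs too). Leaving out 1 array in turn gave 80.8 to 87.8% lower in cMoPs too. The causes were not tested. List medians that moved by over 1.5 times included those of early lymphoid (0.50), basophil (-0.73) and stem genes (-0.11) with no filter, of erythroid genes (-0.21) with probes detected on all 4 arrays and of later neutrophil genes (0.15) with 8 arrays. The median of the S100 list turned to -0.017 with normexp, and that of the megakaryocyte list to 0.0012 with no filter, 0.0012 with 8 arrays, 0.18 with probes detected on all 4 arrays and -0.40 to 0.038 with 1 array left out, above 0 without Irf8KO replicate 1. With the experiment number as a replicate block, which the check of pairing neither bears out nor excludes, 2651 genes were higher and 3339 lower. Calls also ended for Cd74 and Mthfsd with normexp (adjusted p = 0.114 and 0.536), for Mthfsd with 8 arrays (0.538), and for Csf1r and 1190005I06Rik with no filter (0.0713 and 0.139) or no trend (0.112 and 0.0832), for Cd86 with no filter (0.0684) and for Hnf4a without WT replicate 1 (0.0568). Genes that passed under an alternative only were Cox4i1 with median scaling (-0.11, 0.0249), Xist without Irf8KO replicate 2 (0.38, 0.0413), and Spi1, Gse1 and Siglech under 5 alternatives each, at adjusted p = 0.00644 to 0.0369, 0.000714 to 0.047 and 3.85e-05 to 0.0395. Probes near background limit what can be measured.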
